A study of Mus musculus with 12 samples.

Results

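The 10 genes described here encode factors that place, read or target methylation of histone H3 at lysine 9 (H3K9). They are Trim28, Setdb1, Zfp57, Ehmt1, Ehmt2, Suv39h1, Suv39h2, Cbx1, Cbx3 and Cbx5. They were chosen by name and not by a rule on their level, though with earlier results of these data known. They were found on the arrays through the transcript identifier that each spot carries. All 10 had a probe on the array, with 15 probes between them, and they stood among 29844 genes tested. RNA came from E14 cells, a mouse embryonic stem (ES) cell line that was grown without feeder cells on gelatin, in medium with serum and LIF. Every sample, controls included, was one dish transfected with esiRNAs (enzymatically prepared pools of short interfering RNAs) and a lipid reagent and collected 48 hr later, so each knockdown (KD) was transient and left the gene itself intact. The 6 groups were EGFP KD (the control, against a reporter gene), Chd4 KD, Mbd3 KD, Mbd2 KD, Tet1 KD and Dnmt1 KD, with 2 arrays each. Dnmt1 maintains DNA methylation, Tet1 oxidizes methylated cytosine, Mbd3 and Mbd2 are alternative subunits of the NuRD co-repressor complex, and Chd4 is the ATPase of NuRD. The study's methods call the duplicate arrays biological replicates, and the labels only number them, so p-values measure the spread between these pairs of arrays.

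H3K9 methylation marks repressed chromatin, including heterochromatin at repeats. Trim28 (also called KAP1) is a co-repressor that KRAB zinc finger proteins bring to DNA, and it in turn recruits the H3K9 methyltransferase Setdb1. In ES cells this system silences endogenous retroviruses, and with the KRAB protein Zfp57 it keeps DNA methylation on imprinted regions. Ehmt1 (GLP) and Ehmt2 (G9a) form a second methyltransferase complex that acts mainly in euchromatin, and Suv39h1 and Suv39h2 act at pericentromeric heterochromatin. Cbx5, Cbx1 and Cbx3 encode HP1 alpha, beta and gamma, which bind methylated H3K9 through a chromodomain. Each comparison below asks whether the mRNA of these factors changed when a DNA methylation enzyme, Tet1 or a NuRD subunit was depleted.

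Each array measured 1 sample in 1 colour. The processed signal, an intensity already corrected for background, was divided by the array's own 75th percentile, and log2 of that ratio is called the log2 signal below. A difference of 1 on this scale is a doubling, and a log2 signal is compared only between arrays for the same probe, never between probes. The arrays lay on 3 slides, with EGFP KD on slides 1 and 2, both Tet1 KD arrays on slide 2 and no control on slide 3. Between 77.3% and 95.4% of spots per array were well above background, and the small number of arrays limits the precision throughout. As a check of the labels, the targeted mRNA was lower on both arrays of Dnmt1 KD (log2 differences from the EGFP KD mean of -1.63 and -2.34), Mbd3 KD (-3.07 and -2.85) and Chd4 KD (-1.54 and -1.01). The arrays labelled Tet1 KD replicate 1 and Mbd2 KD replicate 1 read -0.02 and -1.78 for the brighter Tet1 probe. They read 0.23 and -1.18 for the dimmer Tet1 probe and -1.74 and -0.23 for the dimmer Mbd2 probe. By these probes the targeted genes go against the 2 labels. Replicate 2 of Tet1 KD and of Mbd2 KD went with the labels, at -1.81 and -0.19, -0.93 and 0.26, and -0.23 and -1.77 for the same probes in order. The brighter Mbd2 probe, which stands for the gene, read -0.19 on Tet1 KD replicate 1 and -0.07 on both Mbd2 KD arrays. It showed neither an exchange nor a knockdown. Values for Tet1 KD and Mbd2 KD are therefore those of the libraries labelled so. Markers of ES cells were present in all groups, with the summed signal of 8 markers between 117 and 159 times the 75th percentile on the 12 arrays, although the Nanog probe read close to the floor (log2 signal -4.59 and -4.09 in EGFP KD, with a floor of -4.86). Dppa5a, 1 of the 8, was saturated on all 12 arrays, so these sums hold only a lower limit of its signal.

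Of the 10 genes, 9 could be compared, and 1 of these passed an adjusted p of 0.05 in any KD. Cbx1, which encodes HP1 beta, rose in Chd4 KD by 1.78 on the log2 scale (standard error 0.28, limma adjusted p = 0.019), a 3.43-fold increase. This value rests on the only Cbx1 probe, which was dim, and the call was sensitive to single arrays and to processing, as described below. Trim28 was saturated on all 12 arrays, so it has no fold change, and 9 genes were compared. In Chd4 KD 1 of the 9 passed a Benjamini-Hochberg adjusted p of 0.05 in limma, where 3.17% of all genes tested passed and 1.96% passed as higher. In Mbd3 KD 0 of the 9 passed, where 0.771% of all genes did (230 genes), and the smallest adjusted p among the 9 was 0.66. In Mbd2 KD, Tet1 KD and Dnmt1 KD no gene on the array passed in limma (0% each), so that the 0 of 9 there says nothing about these factors in particular. At an unadjusted p under 0.05 the limma fit gave 614 genes in Mbd2 KD (2.06%), 844 in Tet1 KD (2.83%) and 1416 in Dnmt1 KD (4.74%), and among the 9 factors it gave 0, 1 and 0. In the pairs labelled Tet1 KD and Mbd2 KD the Tet1 probes were low on 1 array and near the control on the other. Their counts are therefore those of the labels and need not be those of either knockdown. A test of differences over all 6 groups at once (limma's moderated F-test) passed Cbx1 only among the 9 (adjusted p = 0.034), where 2.23% of all genes passed. That F-test uses the same Cbx1 values as the Chd4 KD call, and its result was sensitive to single arrays too.

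**Figure D1:**
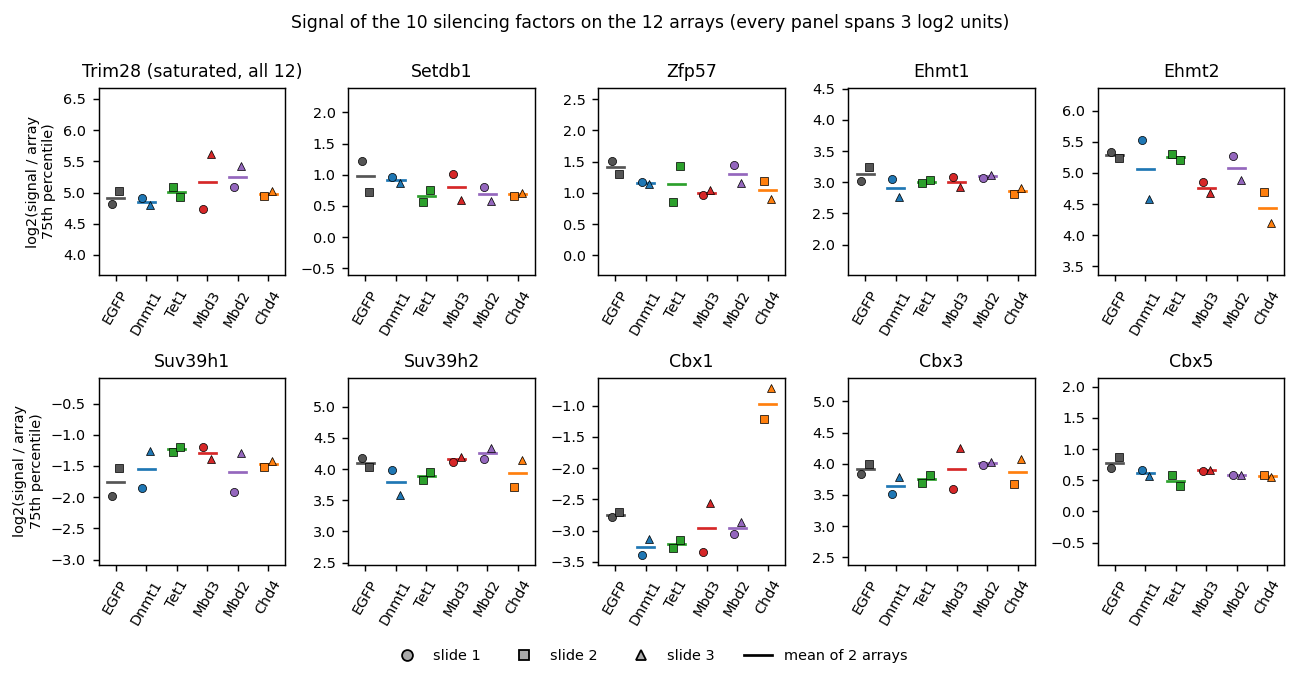
log2 signal (signal over the array's 75th percentile, y axis) of the probe that stands for each of the 10 genes on the 12 arrays, by KD group on the x axis, with marker shape for the slide and a line for the mean of 2 arrays. Both Chd4 KD arrays stand above the other 10 for Cbx1, while the other 8 genes compared span at most 1.34 between their lowest and highest array (Ehmt2), and the Trim28 values are all saturated readings.

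Of the 3 HP1 genes, 1 passed in a KD. The only Cbx1 probe had a log2 signal of -2.79 and -2.70 on the EGFP KD arrays and -1.22 and -0.71 on the Chd4 KD arrays. On the arrays of the other KDs it read -3.39 and -3.13 in the Dnmt1 KD pair, -3.05 and -2.87 in the Mbd2 KD pair, -3.35 and -2.56 in the Mbd3 KD pair, and -3.28 and -3.15 in the Tet1 KD pair. Thus the lower of the Chd4 KD arrays lay above the highest of the other 10 arrays, and those 10 overlapped between groups only in part, with both Mbd2 KD, Tet1 KD and Dnmt1 KD arrays below both controls. The probe was dim on the 10 other arrays but well above background on all 12, with an uncorrected median intensity between 278 and 462 there and of 962 and 1510 in Chd4 KD. Against the control on the same slide (slide 2), Chd4 KD replicate 1 was higher by 1.49. Chd4 KD replicate 2 lay on slide 3, which held no control, and with slide as a block in limma the log2 fold change was 1.56 (adjusted p = 0.0182). Ranked by size among the 29844 genes, this rise was number 222 in Chd4 KD.

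The Cbx1 call in Chd4 KD was sensitive to single arrays. Without EGFP KD replicate 1 the log2 fold change was 1.74 with a limma adjusted p of 0.119, and without EGFP KD replicate 2 it was 1.82 with 0.090. Without Chd4 KD replicate 2 it was 1.53 with an adjusted p of 0.126, and without the arrays labelled Tet1 KD replicate 1 and Mbd2 KD replicate 1 it was 1.78 with 0.094. Its size therefore stayed between 1.53 and 2.03 when 1 array was left out, while the call was lost in 3 of those 12 fits.

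Cbx1 was next compared between KDs directly, without the controls in the contrast. It was higher in Chd4 KD than in Mbd3 KD by 1.99 (standard error 0.28, limma adjusted p = 0.0225), where 1.46% of all genes differed, and it was the 1 of 9 factors that did. Both KDs had an array on slide 3, and there the difference was 1.84. The limma call was lost when 1 array was left out, other than a Dnmt1 KD array or Mbd3 KD replicate 2, with adjusted p from 0.0503 to 0.129. In the other KDs the Cbx1 log2 fold changes over EGFP KD were -0.21 in Mbd3 KD (95% interval -0.86 to 0.44), -0.22 in Mbd2 KD (-0.87 to 0.43), -0.47 in Tet1 KD (-1.12 to 0.18) and -0.51 in Dnmt1 KD (-1.16 to 0.14), none of which passed in limma after adjustment. These intervals come from the same fit and are not adjusted for the number of genes. Between Mbd3 KD and Mbd2 KD, and between Dnmt1 KD and Mbd3 KD, 0 of the 9 factors differed after adjustment in limma, where 0.503% and 0.66% of all genes did.

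**Figure D2:**
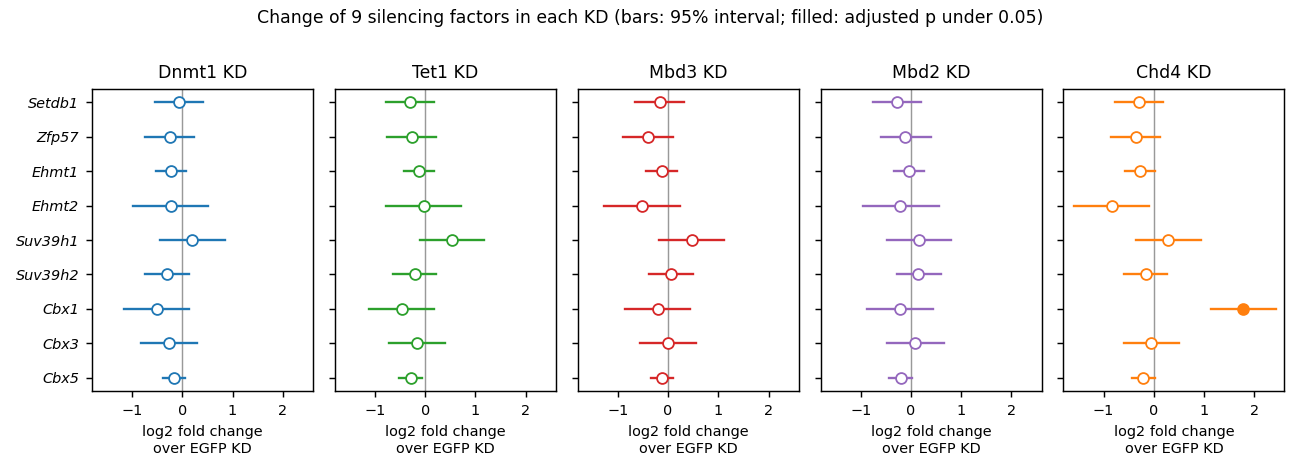
log2 fold change over EGFP KD (x axis) of the 9 genes that were not saturated (y axis) in each KD, with 95% intervals of the limma fit as bars and a filled point where the adjusted p was under 0.05. The filled point of Cbx1 at 1.78 in Chd4 KD is the only one, and most intervals of the other genes include 0.

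For Cbx3, which encodes HP1 gamma, the brighter of the 2 probes read 3.84 and 4.00 in EGFP KD and 3.67 and 4.07 in Chd4 KD. These groups overlapped, and the log2 fold change in Chd4 KD was -0.05 (95% interval -0.60 to 0.51). Over the 5 KDs the Cbx3 values ran from -0.27 in Dnmt1 KD to 0.09 in Mbd2 KD. The dimmer Cbx3 probe gave 0.34 in Tet1 KD, where the brighter gave -0.16, and neither passed.

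Cbx5, which encodes HP1 alpha, had the smallest spread of the 10 genes, with a pooled standard deviation of 0.08 between arrays of a group. Its brighter probe read 0.69 and 0.88 in EGFP KD, and all 10 KD arrays lay below both, between 0.41 and 0.67. The lowest pair was Tet1 KD at 0.58 and 0.41. The log2 fold changes were -0.21 in Chd4 KD, -0.13 in Mbd3 KD, -0.20 in Mbd2 KD, -0.29 in Tet1 KD and -0.17 in Dnmt1 KD, and none passed in limma after adjustment (the smallest unadjusted p was 0.019, in Tet1 KD, with an adjusted p of 1). All 5 values share the 2 control arrays. The dimmer Cbx5 probe read higher than its EGFP KD mean on 5 of the 10 KD arrays, with log2 fold changes of 0.14 in Tet1 KD, 0.18 in Mbd3 KD and 0.16 in Mbd2 KD, so the probes of Cbx5 disagreed in sign in these 3 KDs.

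Trim28, the co-repressor, could not be compared. Its probe was marked saturated on all 12 arrays, and the readings between 4.73 and 5.62 are lower limits of its signal. Setdb1, the methyltransferase that Trim28 recruits, read 1.22 and 0.73 in EGFP KD, 0.66 and 0.71 in Chd4 KD and 0.56 and 0.76 in Tet1 KD. Its controls were far apart, and only the Chd4 KD arrays lay below both of them. The log2 fold changes of Setdb1 were between -0.31 (Tet1 KD) and -0.06 (Dnmt1 KD), and the 95% interval in Tet1 KD ran from -0.79 to 0.17. Both Tet1 KD arrays lay on slide 2, and against the control there they differed by -0.17 and 0.04. With slide as a block in limma the Tet1 KD value was -0.11.

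Zfp57, the KRAB protein of imprinted regions, read 1.51 and 1.31 in EGFP KD with its brighter probe. It read 0.97 and 1.04 in Mbd3 KD, 1.19 and 0.90 in Chd4 KD and 1.17 and 1.14 in Dnmt1 KD, so that in these 3 KDs both arrays lay below both controls. In Tet1 KD it read 0.85 and 1.43 and in Mbd2 KD 1.45 and 1.16, which overlapped the controls. In Mbd3 KD the difference, -0.40, was the largest (limma adjusted p = 0.664, standard error 0.21). Both Zfp57 probes had the same sign on 9 of the 10 KD arrays, and the dimmer one gave -0.24 in Mbd3 KD (adjusted p = 0.573 in limma over every probe).

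Ehmt2, which encodes G9a, had the lowest log2 fold change of the 9 factors. It read 5.33 and 5.24 in EGFP KD and 4.70 and 4.19 in Chd4 KD, with both Chd4 KD arrays below both controls. The log2 fold change in Chd4 KD was -0.84 (standard error 0.32), with an unadjusted p of 0.033 and a limma adjusted p of 0.306, so it was not called. Mbd3 KD, at 4.86 and 4.67, gave -0.52 (adjusted p = 0.749), and Dnmt1 KD was split between 5.53 and 4.58. Within slide 2, Chd4 KD replicate 1 differed from its control by -0.55, and within slide 1, Mbd3 KD replicate 1 differed from its control by -0.47. The Ehmt2 spot was bright, with an uncorrected median intensity at 51.3% to 90.1% of the scanner's limit. The processed signal was 1.29 to 1.66 times that median on slides 1 and 2 and 0.98 to 1.08 times on slide 3, and the part of this in the Ehmt2 values was not tested.

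Ehmt1, the partner of Ehmt2 in the same complex, also had its lowest group mean in Chd4 KD, with 2.81 and 2.90 against 3.02 and 3.25 on the control arrays. Its log2 fold change was -0.28 (95% interval -0.58 to 0.02, limma adjusted p = 0.445). The dimmer Ehmt1 probe gave -0.45 in Chd4 KD (adjusted p = 0.702), the same sign. In the other 4 KDs the brighter probe gave values between -0.22 and -0.04, and at least 1 array of each overlapped the controls.

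Suv39h1 was the one factor whose value was above the control in every KD, though it passed in none. It read -1.98 and -1.54 on the controls, -1.51 and -1.42 in the Chd4 KD pair, -1.19 and -1.39 in the Mbd3 KD pair and -1.27 and -1.19 in the Tet1 KD pair, so that in these 3 KDs both arrays lay above both controls. The controls themselves were far apart, and the largest log2 fold change was 0.53 in Tet1 KD (95% interval -0.11 to 1.17). Against the control on their own slide (slide 2) the Tet1 KD arrays were higher by 0.26 and 0.35. In Dnmt1 KD (-1.85 and -1.26) and Mbd2 KD (-1.91 and -1.29) the array on slide 1 was low and the array on slide 3 was high. Suv39h2 read 4.17 and 4.03 in EGFP KD and 3.72 and 4.15 in Chd4 KD with its brighter probe, which overlapped. Its lowest value was -0.31 in Dnmt1 KD (3.99 and 3.59), and its probes had opposite signs on 5 of the 10 KD arrays.

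**Figure D3:**
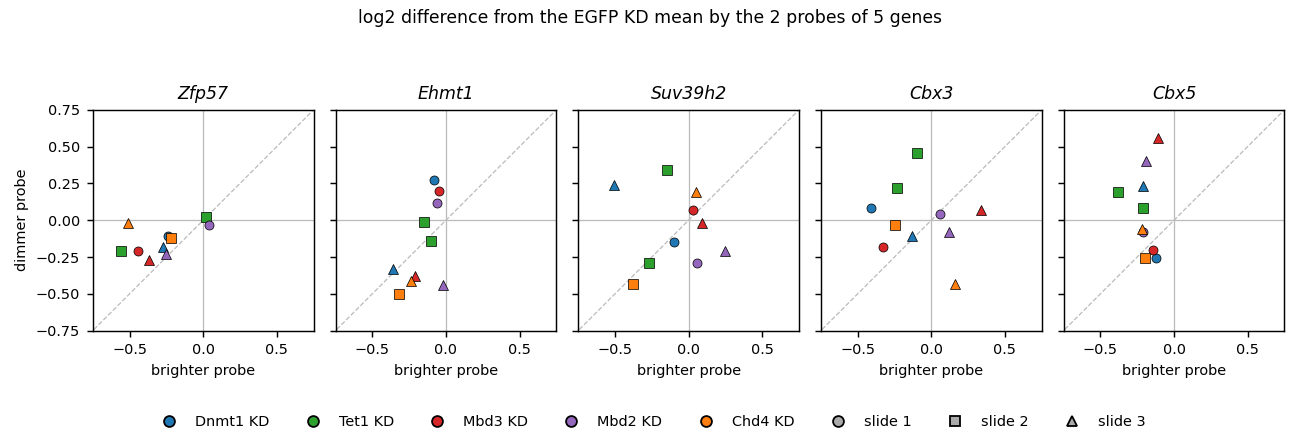
log2 difference of each of the 10 KD arrays from the EGFP KD mean by the brighter probe (x axis) and the dimmer probe (y axis) of the 5 genes with 2 probes, with colour for the KD and shape for the slide. Both probes have the same sign on 9 of 10 arrays for Zfp57, on 7 for Ehmt1 and on 5 each for Suv39h2, Cbx3 and Cbx5, and the largest gap between probes on an array is 0.75 (Suv39h2).

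Taken by counts, more of the 9 factors had a value below 0 than above it in each KD. Below 0 were 7 in Chd4 KD, 6 in Mbd3 KD, 6 in Mbd2 KD, 8 in Tet1 KD and 8 in Dnmt1 KD, where the shares of all genes below 0 were 49%, 54%, 50.3%, 34.3% and 51.4%. The median log2 fold change of the 9 was -0.21 in Chd4 KD, -0.13 in Mbd3 KD, -0.11 in Mbd2 KD, -0.21 in Tet1 KD and -0.23 in Dnmt1 KD, beside 0, -0.03, 0, 0.09 and -0.01 for all genes. The 5 KDs share their controls. Over 23 other settings of the scanner files the median of the 9 ran from -0.25 to -0.06 in Chd4 KD, -0.22 to 0.04 in Mbd3 KD, -0.13 to 0.05 in Mbd2 KD, -0.23 to 0.02 in Tet1 KD and -0.28 to -0.10 in Dnmt1 KD, and the values above 0 came with normexp. Single arrays moved it over 1.5 times. It was -0.22 in Mbd3 KD without EGFP KD replicate 1 and -0.03 without EGFP KD replicate 2, and without the former it was -0.13 in Chd4 KD and -0.06 in Mbd2 KD. Without Mbd2 KD replicate 2 it was -0.06 in Mbd2 KD, without the array labelled Tet1 KD replicate 1 it was -0.10 in Tet1 KD, and without Dnmt1 KD replicate 2 it was -0.10 in Dnmt1 KD. Both arrays of a KD lay outside both controls for 7 of 9 factors in Chd4 KD (37.9% of all genes), 4 in Mbd3 KD (30%), 2 in Mbd2 KD (22.7%), 5 in Tet1 KD (35%) and 5 in Dnmt1 KD (20.9%). Among these, Cbx1 in Chd4 KD and Suv39h1 in Chd4 KD, Mbd3 KD and Tet1 KD lay above the controls and the rest below.

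The other genes of the pathway were taken as lists, to be read beside the shares of all genes that passed, 3.17% in Chd4 KD and 0.771% in Mbd3 KD. Of 22 Trim28 and Setdb1 cofactors (among them the SUMO pathway, the HUSH complex, Atrx and Daxx) 21 were compared, since Sumo2 was saturated, and 0 passed in any KD in limma; the smallest p was that of Atf7ip, a Setdb1 cofactor, in Mbd3 KD (-0.56, unadjusted p = 0.026, adjusted p = 0.393). Of 10 KRAB zinc finger genes 1 passed. Zfp90 read -1.53 and -1.86 in EGFP KD and -2.50 and -2.78 in Mbd3 KD, a fall of 1.92-fold (log2 fold change -0.94, limma adjusted p = 0.0499). Of 14 other H3K9 enzymes and partners compared, 1 passed. E2f6, a repressor that works in a complex with Pcgf6 and L3mbtl2, rose in Chd4 KD by 0.73 (adjusted p = 0.0473), from 0.74 and 0.55 to 1.51 and 1.24. The Zfp90 and E2f6 calls lie just under the threshold, and 20 and 17 of 25 other settings lost them.

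None of 10 HP1 partners, 10 H3K9 demethylases or 4 Polycomb genes of the Cbx family passed in any KD in limma. Their smallest p-values were all in Chd4 KD, and were those of Pogz, which binds HP1 (-0.48, unadjusted p = 0.0047, adjusted p = 0.0964), Kdm4a, a demethylase (-0.78, 0.0069 and 0.122), and Cbx6 (-0.45, 0.038 and 0.335). The 10 demethylases had a median of -0.33 in Chd4 KD and the HP1 partners of -0.02. Pogz read 0.48 and 0.27 in EGFP KD and -0.10 and -0.11 in Chd4 KD, so the Chd4 KD arrays lay below both controls.

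**Figure D4:**
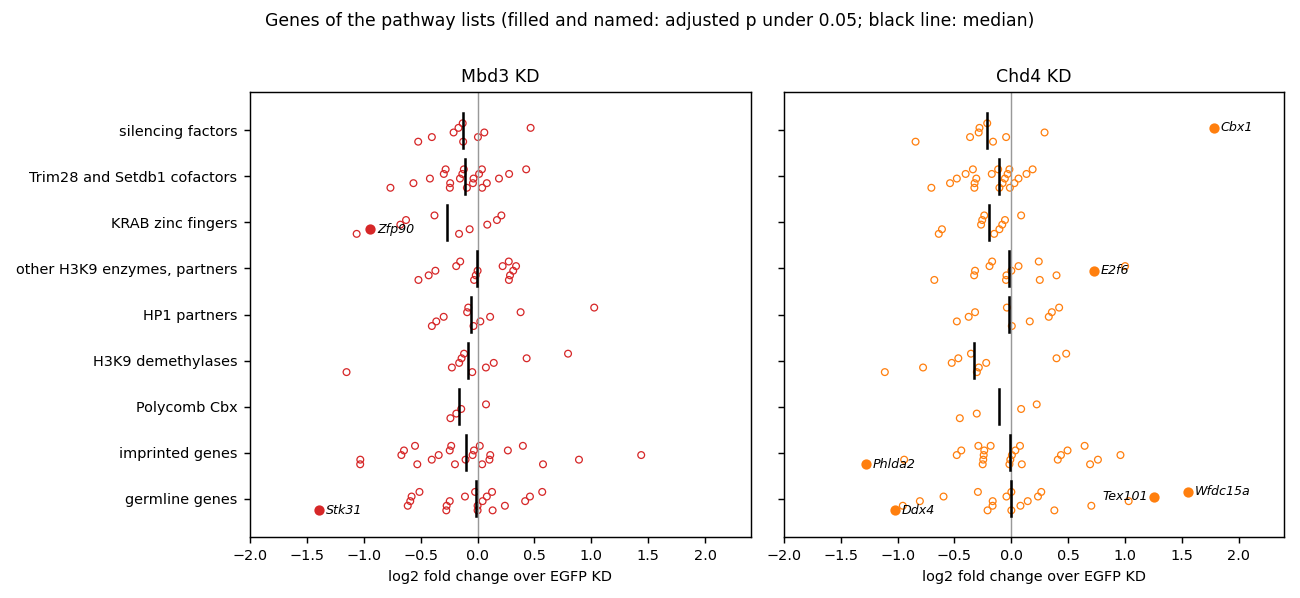
log2 fold change over EGFP KD (x axis) in Mbd3 KD and Chd4 KD for every gene compared of each pathway list (y axis), with filled, named points where the adjusted p was under 0.05 and a black line for the list's median. The medians of all 9 lists lie between -0.33 and 0 in Chd4 KD, and Cbx1 at 1.78 lies highest.

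Imprinted and germline genes, many of which are known to need DNA or H3K9 methylation for their silencing, were taken as 2 further lists. Of all genes tested, 3.17% passed in Chd4 KD and 0.771% in Mbd3 KD. Of 23 imprinted genes compared, 1 passed: Phlda2 fell in Chd4 KD 2.42-fold (-1.28, limma adjusted p = 0.0305), from 1.78 and 1.52 to 0.55 and 0.20. Of 20 germline genes, Stk31 fell in Mbd3 KD (-1.39, adjusted p = 0.041), and in Chd4 KD Wfdc15a rose by 1.55 (adjusted p = 0.000926) and Tex101 by 1.26 (adjusted p = 0.0134). Ddx4 fell in Chd4 KD by 1.02, a value that rests on 1 Chd4 KD array because the spot of the other had an outlier mark. Of 25 other settings 21 lost the Stk31 call and 11 that of Phlda2, and of 24 run for Ddx4 17 lost its call. The medians of both lists in Chd4 KD were -0.01 for the imprinted and 0 for the germline genes.

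Some markers of other cell types were also higher in Chd4 KD, where 3.17% of all genes passed (0.771% in Mbd3 KD). The summed signal of 12 trophoblast markers, in multiples of the 75th percentile, was 5.47 to 5.73 in EGFP KD and 9.55 to 9.70 in Chd4 KD. Of the 12 genes 2 passed (Esx1, up 5.89-fold, and Krt18, up 2.28-fold), and the median log2 fold change of the 12 was 0.29. Bright probes weigh most in such a sum, and Krt18 had a log2 signal of 1.20 and 1.12 in EGFP KD and 2.25 and 2.46 in Chd4 KD. The summed signal of 7 fibroblast markers was 5.19 to 5.76 in EGFP KD. It was 9.48 to 9.97 in Mbd3 KD and 9.41 to 12.5 in Chd4 KD, so the Mbd3 KD range lay within that of Chd4 KD. Most of both sums came from the bright Thy1 probe. Its mean log2 signal was 3.02 in Mbd3 KD and 3.17 in Chd4 KD, against 1.75 in EGFP KD. The dim Col1a1 probe, which adds little to such a sum, read -4.01 and -4.2 in Mbd3 KD and -1.8 and -1.9 in Chd4 KD. Of the 6 fibroblast genes tested Thy1 passed in both KDs (1.28 in Mbd3 KD and 1.42 in Chd4 KD) and Col1a1 in Chd4 KD alone (2.50), while Postn was not tested, since no group had it well above background on both of its arrays. The median of the 6 was -0.40 in Mbd3 KD and -0.26 in Chd4 KD beside the rises of Thy1. Dcn, Lum and Col3a1 were lower, and Col1a2 higher, on the slide 3 array of both KDs than on the other array. Dcn read -0.08 and -1.87 in Mbd3 KD and -0.29 and -1.37 in Chd4 KD, with the second array of each on slide 3, which held no control. The summed signal of 7 endoderm markers was 0.958 to 1.68 in EGFP KD and 1.28 to 1.69 in Chd4 KD, and 0 of 7 passed in limma. The median log2 fold change of the 7 was 0.5 in Chd4 KD. Their smallest p in limma was that of Gata4 in Dnmt1 KD (1.58, unadjusted p = 0.0019, adjusted p = 0.415). In Mbd3 KD the trophoblast gene Gata3 was lower, at least 1.82-fold (limma adjusted p = 0.0336), since it was not well above background on the Mbd3 KD arrays. It lay at the floor on the Dnmt1 KD and Tet1 KD arrays too, and 17 of 24 other settings lost the call. The part of these changes in the Cbx1 value was not tested, and in such bulk samples a change in the share of cells of one type and a change in RNA per cell cannot be told apart.

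The 3 genes whose log2 signal was most like that of Cbx1 over the 12 arrays were Pth1r (Pearson r = 0.967), which encodes a parathyroid hormone receptor, Gata1 (0.962), an erythroid transcription factor, and Col2a1 (0.951), a cartilage collagen. Each was highest on both Chd4 KD arrays, and the log2 fold changes in Chd4 KD were 2.08, 1.16 and 1.59, a rise that the choice by likeness to Cbx1 builds in. In Mbd3 KD they were 0.16, 0.19 and -0.15. These correlations are a description, since the arrays share slides and labelling, and they were the highest of all genes with a symbol.

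**Figure D5:**
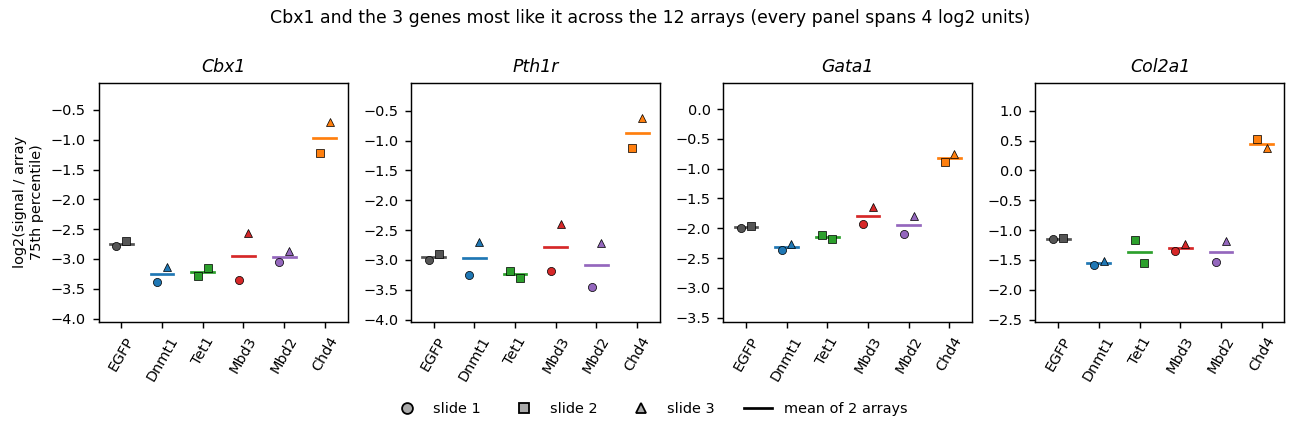
log2 signal (y axis) of Cbx1 and of the 3 genes most correlated with it on the 12 arrays, by KD group (x axis), with marker shape for the slide and a line for the mean of 2 arrays. In each panel the Chd4 KD arrays lie above the other 10, and the other 5 groups overlap in part.

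The genes next to Cbx1 on the chromosome, looked at after its rise was seen, did not pass in Chd4 KD in limma. Skap1 and Snx11 on one side gave 0.60 (standard error 0.75, adjusted p = 0.884) and -0.69 (standard error 0.17, adjusted p = 0.0941). Nfe2l1 and Copz2 on the other gave 0.11 (adjusted p = 0.936) and -0.39 (adjusted p = 0.811).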

How the data were processed

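RNA of 12 samples was hybridized to one-colour Agilent mouse arrays, and per the labels the spots were quantified with Feature Extraction 10.7.1.1. The scanner output was deposited with an intensity per spot, which that software had corrected for background and which is not scaled between arrays. A deposited value table holds log2 values of the 10 KD arrays without a column for EGFP KD, with array medians between -0.006 and 0.004. How that table was made is not given in the sources used here, and its values are much closer to 0 than the log2 fold changes of the scanner files. It was used as an alternative only, and it holds 3 of the 10 genes.

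Control spots (1377) and spots with an outlier mark were removed, and 43020 spots of 39429 probes were not controls. Each intensity was scaled by its array's 75th percentile (1783.5 to 2445.1). Values under 0.0344, the largest of the 12 arrays' lowest scaled signals called above background, were set to it, and log2 was taken. Replicate spots were averaged. A probe was kept where both arrays of some group called it well above background, and the brightest kept probe stood for its gene, with the others reported beside it. Gene symbols came from transcript identifiers through a RefSeq gene table of GRCm38.p6, which named 71.4% of all spots and 98.4% of those carrying a RefSeq mRNA. No coordinates are given because the array was designed on another build, and no sequences because the files hold none of the probes.

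One model with the 6 groups as terms was fitted to all 12 arrays (limma 3.58.1, R 4.3.3). A gene was called in a comparison at a Benjamini-Hochberg adjusted p under 0.05 over the 29844 genes tested, of which 19391 had a symbol. A gene saturated on all arrays was given no fold change. Replicates correlated across genes with Pearson's r between 0.9385 (Dnmt1 KD) and 0.9917 (Tet1 KD).

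Genes named are the 10 factors with every probe, the 5 targeted genes, of each list the called genes (at most 4 per KD) or else the gene with the smallest p, and the 3 genes most correlated with a called factor. Some further list genes are named for a limit of their probe or slide. The 4 neighbours of Cbx1 were chosen after its value was seen. The factors and the lists were chosen with earlier results of these data known. Alternatives were quantile normalization, normexp (offset 50, on the median signal because no mean signal is given), other filters on dim probes, other ways to join probes, a block for the slide or for the replicate number, a trended and robust variance prior, only the 4 arrays of a comparison, leaving out each array, and the deposited table. A fit without the 2 arrays whose targeted gene goes against the label, and normexp with outlier backgrounds replaced by the array's median background, were added after seeing the data.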

Additional observations from a re-analysis of the deposited data

Results flagged for a closer look

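The Cbx1 log2 fold change differed between 2 KDs of NuRD subunits under the same control, by 1.99 between Chd4 KD and Mbd3 KD, and the difference itself passed in limma (adjusted p = 0.0225). Both Chd4 KD arrays (-1.22 and -0.71) lay above both Mbd3 KD arrays (-3.35 and -2.56). Whether depletion was equally deep in both was not tested: the targeted mRNA read -1.54 and -1.01 in Chd4 KD and -3.07 and -2.85 in Mbd3 KD as log2 differences from the EGFP KD mean.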

How the results depend on the processing

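In Mbd3 KD, Mbd2 KD, Tet1 KD and Dnmt1 KD, and in the contrasts of Mbd3 KD with Mbd2 KD and of Dnmt1 KD with Mbd3 KD, 0 of the 9 factors were called in limma under every alternative run. In Chd4 KD the count was 2 in the deposited table, where Ehmt2 was called beside Cbx1 (limma adjusted p = 0.0103). That table holds 3 of the 9 factors and no control column. Its values were therefore tested against 0, without the spread of the controls, which is not the same comparison. With the scanner files the count of 1 (Cbx1) depended on single arrays, as described above. It went to 0 with normexp and with only the 4 arrays of the comparison. It also went to 0 without the arrays labelled Tet1 KD replicate 1 and Mbd2 KD replicate 1. In the contrast of Chd4 KD with Mbd3 KD and in the F-test over 6 groups the count of 1 also went to 0 with normexp and without those 2 arrays, in the former also with only 4 arrays, and it ranged from 0 to 1 when 1 array was left out. The Cbx1 log2 fold change in Chd4 KD was 0.84 with normexp (adjusted p = 0.577), 1.68 with quantile normalization and between 1.53 and 2.03 with 1 array left out. The 1st percentile of the signal after normexp was 1050 on EGFP KD replicate 2 against 64 to 88 on the other arrays, and there the lowest spot had a signal minus background of -65209. With outlier backgrounds replaced by the array's median this percentile was 68 and Cbx1 was 1.49 (adjusted p = 0.00667). Same-numbered replicates did not deviate together throughout (correlations over 15 pairs of groups from -0.042 to 0.767, median 0.383), so the numbers were not taken as pairs. With the replicate number as a block Cbx1 had an adjusted p of 0.00744 in Chd4 KD and the count stayed 1. The sign of an uncalled value differed from that of the main setting in 65 of 1050 values of the 9 factors, and no called value changed sign. Trim28 was limited by saturation, and Cbx1 and Suv39h1 by dim probes, at 0.424% to 2.31% of the scanner's limit.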
